A study of Homo sapiens with 4 samples.

Results

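MicroRNA host genes are noncoding genes whose transcripts hold 1 or more microRNA (miRNA) hairpins. They were picked as the rows whose stable identifier, without its version, has a GENCODE symbol that starts with MIR and ends with HG and the gene type lncRNA, and 81 of the 60708 genes in the table met this rule. The measurement was TT-seq, in which RNA made during a short pulse of 4-thiouridine (4-SU) is fragmented, purified and sequenced, so the counts report on recent synthesis over introns and exons alike. All 4 libraries came from HEK293, a human embryonic kidney line, in its RPB1 degron form, where auxin removes the endogenous RPB1, the largest subunit of RNA polymerase II (Pol II). The cells carried a transiently transfected plasmid for RPB1 with a 52X C-terminal domain (CTD), either WT (52X WT, 2 libraries) or with T4A, threonine to alanine at the fourth position, in every repeat (52X T4A, 2 libraries). Auxin was given 48 h after transfection and kept for 48 h, and 4-SU was given for 20 min. Degron, transfection, auxin and labeling were thus shared by both groups, and cells without plasmid or without auxin were not analysed here. The labels do not say whether the replicates were separate cultures, so p-values measure only the spread between these libraries. Auxin leaves whatever RPB1 has escaped degradation beside the plasmid's product, and how much of each was present was not measured in these libraries. Values were scaled to each library as a whole, so a fold change is relative to the other genes. A change shared by all genes would not be seen. A lower value of a gene may come from fewer cells that transcribe it or from less of its RNA per cell, which cannot be told apart in bulk RNA.

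A primary miRNA transcript is made by Pol II, the microprocessor (DROSHA with DGCR8) cuts the hairpin out of it in the nucleus, and after export DICER1 trims the hairpin to the mature miRNA that an Argonaute protein carries. The seed, the bases near the 5′ end of the mature miRNA, does most of the target recognition, so miRNAs that share a seed share many targets. A host gene often holds several hairpins, and then a single transcription event makes the precursor of several miRNAs. TT-seq reads cover the host transcript and do not measure mature miRNAs.

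Of the 81 host genes, 63 held at least 1 RefSeq hairpin on their own strand and within their span, and 25 held at least 2, up to 8 in MIR493HG. These were 108 hairpins. The hairpins lay at a median of 49.1% of the host span, counted from its start, with 10 of them in the first 10% and 14 in the last 10%. Of the 108 hairpins, 106 had a row of their own in the table, and all 106 rows were listed at 0 in every library, so the host row is the measurement of each of these transcripts. In the 38 hosts with a mean of at least 1 normalized CPM (CPM, counts scaled to the library total and the TMM factors) and a listed hairpin, RefSeq gave 106 mature miRNAs with 88 seeds, of which 9 occurred in more than 1 host.

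The let-7 seed was the most widely shared of these, with 9 miRNA genes in 6 hosts: MIRLET7A1HG, MIRLET7IHG, MIRLET7BHG, MIR99AHG, MIR4500HG and MIR100HG. The let-7 miRNAs promote differentiation and restrain growth genes such as HMGA2 and RAS. Their mature sequences, from RefSeq on GRCh38.p14, are written 5′ to 3′ with the seed (bases 2 to 8) in capitals, to show that the seed is kept while the rest varies:
hsa-let-7a-5p (MIRLET7A1HG, MIRLET7BHG, MIR100HG): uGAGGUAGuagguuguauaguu
hsa-let-7f-5p (MIRLET7A1HG): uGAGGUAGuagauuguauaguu
hsa-let-7d-5p (MIRLET7A1HG): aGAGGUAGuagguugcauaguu
hsa-let-7i-5p (MIRLET7IHG): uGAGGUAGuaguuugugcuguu
hsa-let-7b-5p (MIRLET7BHG): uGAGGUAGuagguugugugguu
hsa-let-7c-5p (MIR99AHG): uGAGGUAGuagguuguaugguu
hsa-miR-4500 (MIR4500HG): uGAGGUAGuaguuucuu

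MIR17HG holds the miR-17 to miR-92a cluster, whose miRNAs promote proliferation and which MYC activates. Its 6 hairpins lay between 2786 and 3495 bp from the start of a gene of 6.76 kb, and the main arms carry 4 seeds. They are shown because this was the most densely transcribed host:
hsa-miR-17-5p: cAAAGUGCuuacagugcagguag
hsa-miR-20a-5p: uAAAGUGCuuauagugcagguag
hsa-miR-18a-5p: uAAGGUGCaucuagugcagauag
hsa-miR-19a-3p: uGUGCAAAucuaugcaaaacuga
hsa-miR-19b-3p: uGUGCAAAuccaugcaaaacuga
hsa-miR-92a-3p: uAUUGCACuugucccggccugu

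The third set belongs to hosts described below for their level or their difference between groups. miR-34a is a target of p53, miR-29 represses collagen genes, miR-181a is known from lymphocyte development, miR-7 from neuroendocrine cells, and miR-9 and miR-137 from neural cells. miR-99a and miR-100 share a seed between MIR99AHG and MIR100HG, and miR-9-5p is encoded in both MIR9-1HG and MIR9-3HG:
hsa-miR-34a-5p (MIR34AHG): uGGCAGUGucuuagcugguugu
hsa-miR-29b-3p (MIR29B2CHG): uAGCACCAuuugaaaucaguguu
hsa-miR-29c-3p (MIR29B2CHG): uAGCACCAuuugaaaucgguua
hsa-miR-181a-5p (MIR181A1HG): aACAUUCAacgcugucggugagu
hsa-miR-99a-5p (MIR99AHG): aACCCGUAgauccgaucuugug
hsa-miR-100-5p (MIR100HG): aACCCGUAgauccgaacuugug
hsa-miR-7-5p (MIR7-3HG): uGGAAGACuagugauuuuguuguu
hsa-miR-9-5p (MIR9-1HG, MIR9-3HG): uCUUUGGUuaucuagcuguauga
hsa-miR-137-3p (MIR137HG): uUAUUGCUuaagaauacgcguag

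**Figure D1:**
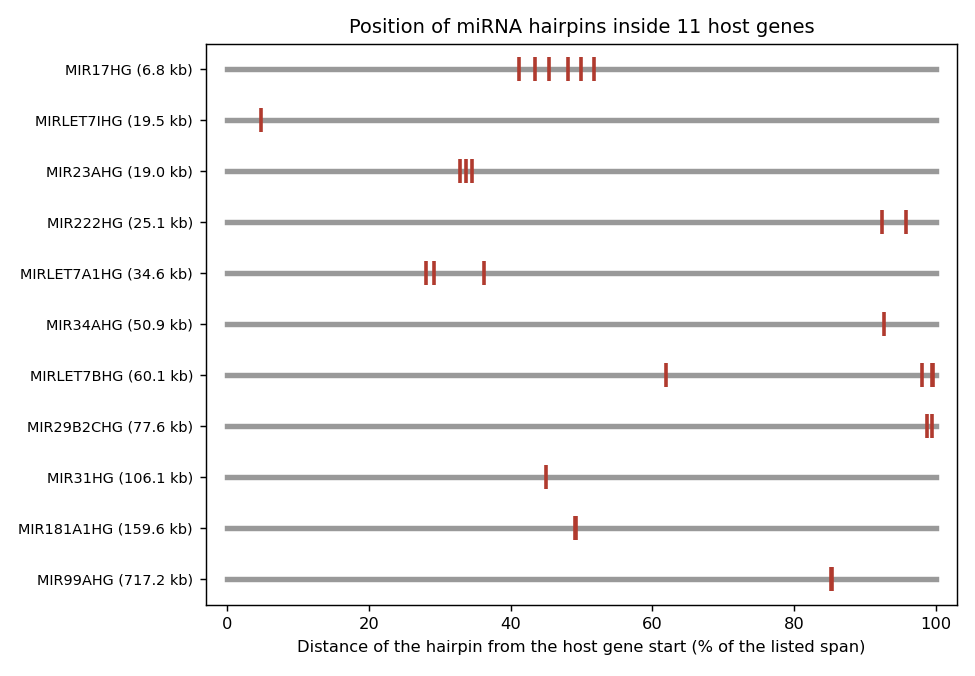
Position of the RefSeq miRNA hairpins (red ticks) along the listed span of 11 host genes (grey lines), as the percent of the span from the host start; the listed length is given beside each name. The hairpins of MIR17HG sit near the middle, that of MIRLET7IHG at 4.80% and those of MIR29B2CHG at 98.7% and 99.5%.

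The libraries held 39249066 and 45605027 counts for 52X WT replicates 1 and 2, and 33853507 and 33188536 for 52X T4A replicates 1 and 2. The correlation of log2 CPM over tested genes was 0.991 for the WT pair and 0.979 for the T4A pair. POLR2A, the gene of RPB1, was listed at 377312, 384353, 251502 and 279478 counts in that order, and reads from the plasmid and from the chromosome cannot be separated in them. In normalized CPM these were 9640, 8720, 7492 and 8083. The log2 fold change was -0.24 with an SE of 0.25 (adjusted p = 0.659 in edgeR's quasi-likelihood test). Of 6 markers known in HEK293, 4 were well transcribed (EYA1, NEFL, SALL2 and LHX1), while PAX2 and NEFM were near background. For 8 markers of blood, endothelium, fibroblasts and hepatocytes that had counts, the summed level was 3.72 to 4.37 normalized CPM in the WT libraries and 5.51 to 5.58 in the T4A libraries, and 2 of them (COL1A1 and APOA1) reached the density limit given below. As a measure of background, 398 olfactory receptor genes, which are mostly silent outside the nose, had a mean density of 0.00613 normalized CPM per kb of listed length. Their median density was 0, and 12 of them had enough counts to be tested, so the genes do not share in the mean alike. The mean density was 0.00544 and 0.00488 in the WT libraries and 0.00843 and 0.00579 in T4A replicates 1 and 2, so T4A replicate 1 stood apart from the rest. Host genes of at least 10 times the mean density are called transcribed here, a limit chosen with the values known. The lowest transcribed host had 0.0674 and the highest of the others 0.0484 normalized CPM per kb.

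By this limit 38 of the 81 host genes were transcribed, and transcription was concentrated in few of them. The summed level of all 81 was 2402 and 2461 normalized CPM in the WT libraries and 2540 and 2481 in the T4A libraries, which is 0.238% to 0.258% of the counts. MIRLET7A1HG, MIR34AHG and MIR17HG held 45.7% to 51.5% of the hosts' counts in each library, and the 12 most counted hosts held 84.2% to 85.1%. Per kb the order differed. MIR17HG, at chr13:91347820-91354579 (GRCh38, plus strand), had 41.5 normalized CPM per kb, 6772 times the olfactory receptor mean. MIRLET7A1HG, at chr9:94166258-94200902 on the plus strand, followed with 14.3. MIR22HG, the host of miR-22, had 10.2 and MIR34AHG, at chr1:9148011-9198906 on the minus strand, had 8.17 normalized CPM per kb. The libraries of neighbours in this order did not overlap down to MIR34AHG. MIRLET7IHG followed with 4.14, and MIR4453HG and MIR222HG with 2.50 and 2.18 normalized CPM per kb, whose ranges over the libraries overlapped.

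**Figure D2:**
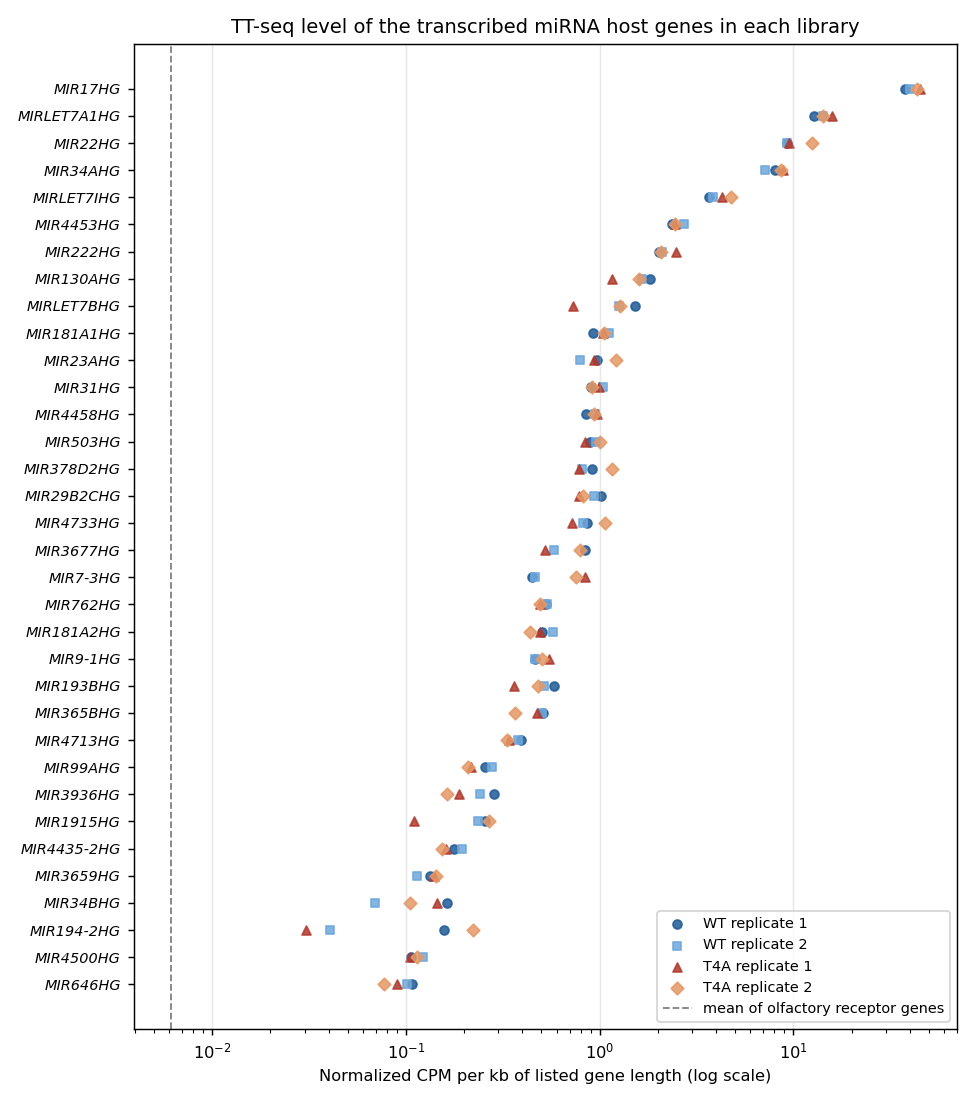
Level of the 34 transcribed and tested host genes in each library, as normalized CPM per kb of listed gene length on a log axis; symbols stand for the 4 libraries and the dashed line for the mean of the olfactory receptor genes. MIR17HG is the densest at 41.5, and in most rows the symbols of both groups lie together.

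Hosts known from other tissues differed in level from list to list. Of 4 epithelial hosts 3 were transcribed by the limit, MIR31HG at 157, MIR200CHG at 27.7 and MIR194-2HG at 18.4 times the olfactory receptor density, while MIR205HG had at most 2 counts in any library. MIR200CHG had at most 12 counts and MIR194-2HG at most 30, so both rest on short spans with few reads. Of 5 blood and immune hosts 2 were transcribed, MIR181A1HG and MIR142HG. MIR142HG, at 19.2 times that density, had at most 9 counts, MIR155HG (B cells) and MIR223HG (myeloid cells) had at most 4, and MIR3142HG lay at 2.17 times. Of 2 stem cell hosts, MIR17HG was transcribed and MIR302CHG (pluripotent cells) had at most 4 counts. None of the 3 endocrine, liver and gonad hosts and neither muscle host was transcribed by the limit, with at most 4 counts for MIR122HG (liver) and MIR133A1HG (muscle). Of the 7 neural hosts, MIR7-3HG and MIR9-1HG were transcribed at 102 and 81.0 times the olfactory receptor density, MIR9-3HG, MIR124-1HG, MIR137HG and MIR325HG lay at 6.27, 4.13, 2.28 and 0.711 times, and MIR124-2HG was at 0. Host length ranged from 949 to 897028 bp, and 5 long hosts, MIR4300HG, MIR3681HG, MIR924HG, MIR100HG and MIR325HG, had counts in every library but densities of only 0.485, 0.540, 0.907, 2.01 and 0.711 times that of the olfactory receptor genes.

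In all, 56 of the 81 host genes passed the filter on low counts and were tested, and 25 did not. Of those 25, none had more than 12 counts in any library, and 5 were at 0 in all 4 libraries (MIR583HG, MIR124-2HG, MIR600HG, MIR670HG and MIR4307HG). All but MIR124-2HG of those 5 share at least 90% of their span with another gene on the same strand. In total 10 members share at least 20% of their span in this way, MIR137HG, MIR130AHG and MIR4435-2HG among the tested ones, and their counts are uncertain. Sharing a span with a gene on the other strand did not leave a member without counts: MIR181A2HG and MIR762HG are covered wholly by such genes and had 21.6 and 10.6 normalized CPM in the WT mean.

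The comparison of 52X T4A with 52X WT asks whether the loss of the threonine at the fourth position of the CTD repeats goes with another rate of synthesis. None of the 56 tested host genes passed an adjusted p of 0.05 in edgeR's quasi-likelihood test, which was adjusted over all 23321 genes tested. Across all genes 0.00429% passed, which was 1 gene, CHST8 (log2 fold change 1.06, adjusted p = 0.0311). At an unadjusted p below 0.05, 10 host genes were higher in T4A (17.9% of those tested, against 7.45% of all genes tested) and 5 were lower (8.93%, against 8.02%). Both T4A libraries lay above both WT libraries in 17 of the 56 (30.4%, against 24.8% of all genes tested) and below both in 13 (23.2%, against 24.7%). The median log2 fold change was 0.17, with 35 positive and 21 negative values between -0.71 and 1.64. Over all tested genes it was -0.00076, and over the other lncRNA genes 0.16. The host genes' median is thus close to that of other lncRNA genes.

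The larger positive values came mostly from hosts near background, where 19 of 22 tested hosts had a positive value, against 16 of the 34 transcribed ones. The 22 tested hosts under the density limit had a median log2 fold change of 0.74, with 8 higher and 0 lower at an unadjusted p below 0.05 (36.4% and 0%, against 14.6% and 1.2% of all tested genes under the limit). Other lncRNA genes under the same limit had a median of 0.48 and all such genes 0.40. Of these 22 hosts, 14 had their highest value in T4A replicate 1. The median deviation from the WT mean on the log2 scale was 0.67 and 0.12 for T4A replicates 1 and 2, and the first of these was also the library with the highest olfactory receptor density. A member of so few counts could pass the filter through its higher group alone, so these counts describe only the members that passed. Without T4A replicate 1, the median log2 fold change of the hosts was 0.062. The part that the background of T4A replicate 1 has in these differences was not tested.

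The 34 transcribed and tested hosts were balanced, with a median of -0.02, 16 positive and 18 negative values, and 2 higher and 5 lower at an unadjusted p below 0.05 (5.88% and 14.7%, against 5% and 10.4% of all transcribed genes tested). The corresponding median was 0.02 for other transcribed lncRNA genes and -0.06 for all transcribed genes. The 2 higher were MIR7-3HG and MIRLET7IHG, and the 5 lower were MIR3936HG, MIR99AHG, MIR29B2CHG, MIR646HG and MIR4435-2HG.

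**Figure D3:**
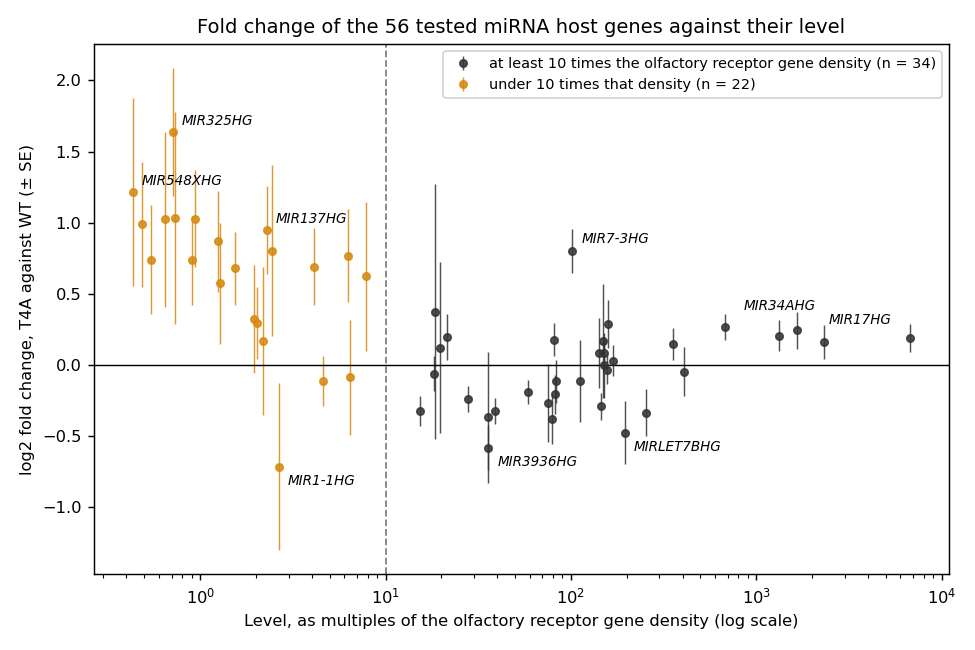
Log2 fold change (T4A against WT, error bars are SE from the edgeR fit) of the 56 tested host genes against their level, as multiples of the olfactory receptor gene density on a log axis; the dashed line marks 10 times. Hosts left of the line have a median of 0.74 and those right of it -0.02.

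The hosts with the most counts had small differences. MIRLET7A1HG had 444 and 491 normalized CPM in the WT libraries and 551 and 494 in the T4A libraries. The groups did not overlap but nearly touched, at a log2 fold change of 0.16 ± 0.12 (SE) and an adjusted p of 0.525. MIR34AHG had 408 and 364 in WT and 451 and 440 in T4A, or 0.21 ± 0.11 (adjusted p = 0.391). Both T4A values of MIR34AHG were above both WT values. MIR17HG was similar, with 255 and 270 normalized CPM in WT and 305 and 294 in T4A, a log2 fold change of 0.19 ± 0.10 and an adjusted p of 0.376. Thus the 3 hosts that hold the most counts were each higher in both T4A libraries, and none passed the adjusted threshold. Among all transcribed genes tested, 18.5% lay above in this way. MIR22HG had 53.0 and 52.7 in WT and 54.2 and 70.9 in T4A (0.24 ± 0.13, adjusted p = 0.394), where T4A replicate 2 alone was high. MIR181A1HG, with 147 and 179 against 165 and 167 normalized CPM (0.03 ± 0.11, adjusted p = 0.910), and MIR31HG, with 95.9 and 111 against 105 and 97.1 (-0.03 ± 0.10, adjusted p = 0.896), had T4A values inside the range of the WT values. The fold change of either host turned its sign when 1 library was left out.

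The 6 hosts of let-7 seed miRNAs did not move together. MIRLET7IHG, at chr12:62602752-62622213 on the plus strand, has its hairpin 935 bp from the start. It had 71.3 and 75.0 normalized CPM in WT and 83.7 and 92.6 in T4A, with both T4A libraries above, a log2 fold change of 0.27 ± 0.09 and an adjusted p of 0.254. MON2, on the same strand, ends 2276 bp upstream of this host. It had a mean of 224 normalized CPM and a log2 fold change of -0.14. Whether RNA that runs on from MON2 adds to the counts of MIRLET7IHG was not tested. MIRLET7BHG, at chr22:46053869-46113928 on the plus strand, holds MIRLET7A3 and MIRLET7B in the last 10% of its span. It had 91.9 and 75.6 in WT, 44.1 in T4A replicate 1 and 76.4 in T4A replicate 2, or -0.48 ± 0.22 (adjusted p = 0.342). Only T4A replicate 1 was low, so the groups overlapped, and without T4A replicate 2 the value was -0.94. MIR99AHG, at chr21:15928296-16645467 on the plus strand, holds MIR99A and MIRLET7C at 610794 and 611533 bp from its start. Its values were 184 and 199 normalized CPM in WT and 156 and 150 in T4A, with no overlap, a log2 fold change of -0.32 ± 0.09 and an adjusted p of 0.224. It passed the threshold with DESeq2, which gave an adjusted p for 20 of the 56 hosts and none to the others, MIR7-3HG and MIR3936HG among them. MIR4500HG, with 26.3 and 30.2 against 26.0 and 28.2, overlapped between groups (-0.06 ± 0.12). MIR100HG was high in T4A replicate 1 alone, with 5.75 and 5.97 in WT and 9.06 and 5.32 in T4A, and its log2 fold change of 0.29 ± 0.25 became -0.13 without T4A replicate 1. MIRLET7A1HG, described above, was also higher in both T4A libraries, by a narrow margin. Within this seed family, MIRLET7IHG and MIRLET7A1HG were thus higher and MIR99AHG lower in both T4A libraries, and none of them passed the adjusted threshold. Over all tested genes 24.8% lay above and 24.7% below in this way.

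**Figure D4:**
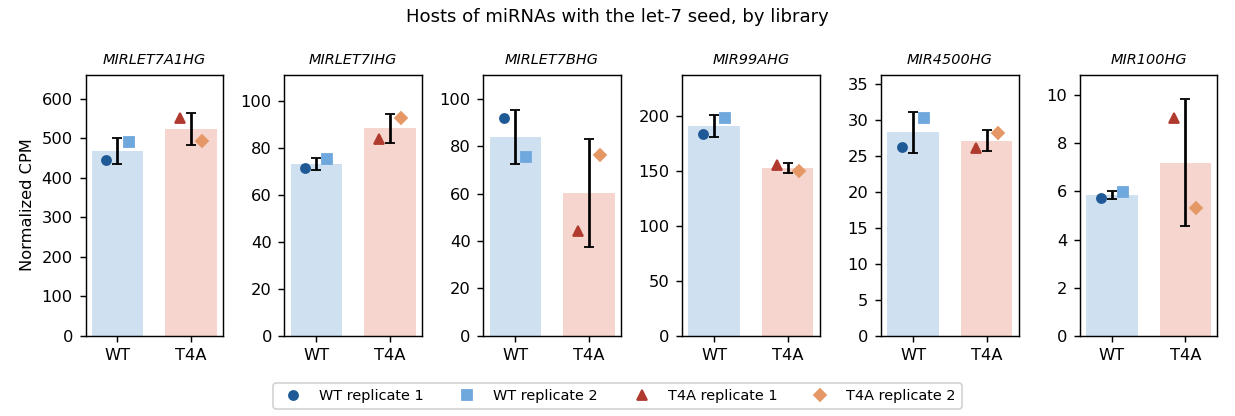
Normalized CPM of the 6 hosts of miRNAs with the let-7 seed; bars are group means, error bars the SD over 2 libraries, symbols the libraries, and each panel has its own axis from 0. MIRLET7IHG and, narrowly, MIRLET7A1HG are higher and MIR99AHG is lower in both T4A libraries. In MIRLET7BHG only T4A replicate 1, at 44.1, is low.

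MIR7-3HG, the host of a miR-7 hairpin at chr19:4769031-4785077 on the plus strand, had the largest positive value among the transcribed hosts. It had 7.18 and 7.44 normalized CPM in WT and 13.4 and 12.1 in T4A. The groups lay well apart, at a log2 fold change of 0.80 ± 0.16, an unadjusted p of 0.000714 and an adjusted p of 0.165. This was the smallest adjusted p among the host genes. With the olfactory receptor density subtracted the value was 0.81, and it was 0.73 without T4A replicate 1 and 0.86 without T4A replicate 2. The other tested hosts on the neural list, which was chosen with earlier results of these data known, had the same direction. All 5 tested neural hosts (MIR7-3HG, MIR9-1HG, MIR9-3HG, MIR137HG and MIR325HG) had both T4A libraries above both WT libraries, with 0 past the adjusted threshold and 4 at an unadjusted p below 0.05. Over all tested genes 24.8% lay above in this way and 7.45% were higher at that p, and over those under the density limit, where 3 of the 5 lie, 43.2% and 14.6%. MIR9-1HG, the other transcribed one, had 24.5 in both WT libraries and 28.8 and 26.6 in T4A (0.18 ± 0.11, adjusted p = 0.468). MIR9-3HG had 0.869 and 1.23 in WT and 1.79 in both T4A libraries (0.77 ± 0.33). MIR137HG, which shares 53.0% of its span with other genes on its strand, had 1.23 and 0.998 in WT and 2.38 and 1.91 in T4A (0.95 ± 0.31). MIR325HG, the host of miR-384, had 0.766 and 0.749 in WT and 3.37 and 1.36 in T4A (1.64 ± 0.45, adjusted p = 0.220), the largest value of all tested hosts. MIR9-3HG, MIR137HG and MIR325HG were under the density limit, and MIR325HG was below the olfactory receptor mean and far higher in T4A replicate 1 than in T4A replicate 2.

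Hosts of broadly expressed miRNAs had values in both directions. Of the 13 tested on that list, 0 were higher and 3 were lower (MIR99AHG, MIR29B2CHG and MIR4435-2HG) at an unadjusted p below 0.05, with none past the adjusted threshold and a median log2 fold change of 0.03. The 3 are 23.1% of the list, against 8.02% lower among all tested genes and 21.6% among transcribed genes of at least 50 kb, a class that holds all 3. MIR29B2CHG, at chr1:207801518-207879115 on the minus strand, holds both of its hairpins near its end. It had 79.4 and 72.8 normalized CPM in WT and 60.7 and 63.7 in T4A, or -0.29 ± 0.09 (adjusted p = 0.245), with no overlap. MIR4435-2HG had 91.6 and 101 in WT and 83.4 and 79.5 in T4A, or -0.24 ± 0.09 (adjusted p = 0.280). MIR193BHG had 17.4 and 15.3 against 10.8 and 14.3, or -0.38 ± 0.17 (adjusted p = 0.334), with the lower T4A value in replicate 1. In MIR29B2CHG, MIR4435-2HG and MIR193BHG alike, both T4A libraries were below both WT libraries. MIR222HG, whose miRNAs repress the cell cycle inhibitor CDKN1B, overlapped between groups, with 50.7 and 52.9 in WT and 62.5 and 52.3 in T4A (0.15 ± 0.11). MIR23AHG also overlapped, with 18.4 and 15.1 against 17.8 and 23.1 (0.29 ± 0.17), as did MIR503HG, with 3.14 and 3.38 against 2.98 and 3.53, a fold change near 0 on the log2 scale with an SE of 0.23. MIR181A2HG, which like MIR181A1HG encodes miR-181a, had 20.3 and 23.0 in WT and 19.9 and 17.6 in T4A, both lower (-0.21 ± 0.13, adjusted p = 0.474). MIR210HG, known from hypoxia, and MIR497HG had too few counts to be tested. MIR497HG shares 93.6% of its span with other genes on its strand, so its counts are uncertain.

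Among the other hosts, MIR3936HG, at chr5:132311285-132370170 on the minus strand, had the most negative log2 fold change of the transcribed ones. Its values were 16.8 and 14.2 normalized CPM in WT and 11.1 and 9.63 in T4A, or -0.58 ± 0.16 (unadjusted p = 0.00580, adjusted p = 0.218). MIR646HG had 61.1 and 57.4 in WT and 50.8 and 43.7 in T4A (-0.33 ± 0.11, adjusted p = 0.249). Neither host had overlapping groups. MIR130AHG, with 27.0 and 24.4 against 17.1 and 23.6 (-0.34 ± 0.17, adjusted p = 0.365), and MIR4713HG, with 100 and 96.8 against 87.3 and 85.6 (-0.19 ± 0.08, adjusted p = 0.329), had both T4A libraries below. Of the hosts near background, MIR4527HG had 1.33 and 0.998 in WT and 2.89 and 1.85 in T4A (1.03 ± 0.34), and MIR924HG had 2.91 and 2.04 against 5.18 and 3.07 (0.74 ± 0.31), and both were highest in T4A replicate 1. The remaining hosts fixed by tissue had wide errors. MIR1-1HG (muscle) had -0.71 ± 0.59, MIR194-2HG (gut and kidney epithelium) 0.38 ± 0.89, MIR3142HG (host of miR-146a, known from immune signaling) 0.17 ± 0.52 and MIR217HG (pancreas) 0.32 ± 0.38, on the log2 fold change scale and with under 1.2 normalized CPM as the mean of either group.

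All 5 transcribed hosts that were lower at an unadjusted p below 0.05 were at least 50 kb long, a split chosen after their values were seen. Shorter hosts were lower too. Both T4A libraries lay below both WT libraries in 6 of the longer and 5 of the shorter transcribed and tested hosts. These are 46.2% and 23.8%, against 46.6% and 23.4% of all transcribed genes of those lengths. MIR193BHG, MIR130AHG and MIR181A2HG are among the shorter ones. Of the 13 transcribed hosts of at least 50 kb, 9 had a negative log2 fold change, with a median of -0.19, against a median of 0.09 for the 21 tested shorter ones. The median deviation of the 13 long hosts was -0.17 and -0.13 for T4A replicates 1 and 2, so both libraries had negative values. All transcribed genes of at least 50 kb also had a negative median, -0.11, with 1154 of 5351 lower at an unadjusted p below 0.05 (21.6%). For other transcribed lncRNA genes of that length the median was -0.04, with 16.6% lower. Over the 34 transcribed hosts the log2 fold change and the logarithm of length had a Pearson r of -0.34 and a Spearman rho of -0.32, given as a description, since the genes share the same 4 libraries. This relation was not stable: r was -0.04 with no filter on low counts, 0.13 without WT replicate 2 and 0.25 without T4A replicate 2. Outside the hosts, r was -0.05 over all transcribed genes, -0.02 over protein-coding ones and 0.05 over other lncRNA genes. For protein-coding genes it was -0.33 without T4A replicate 1 and 0.25 without T4A replicate 2.

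**Figure D5:**
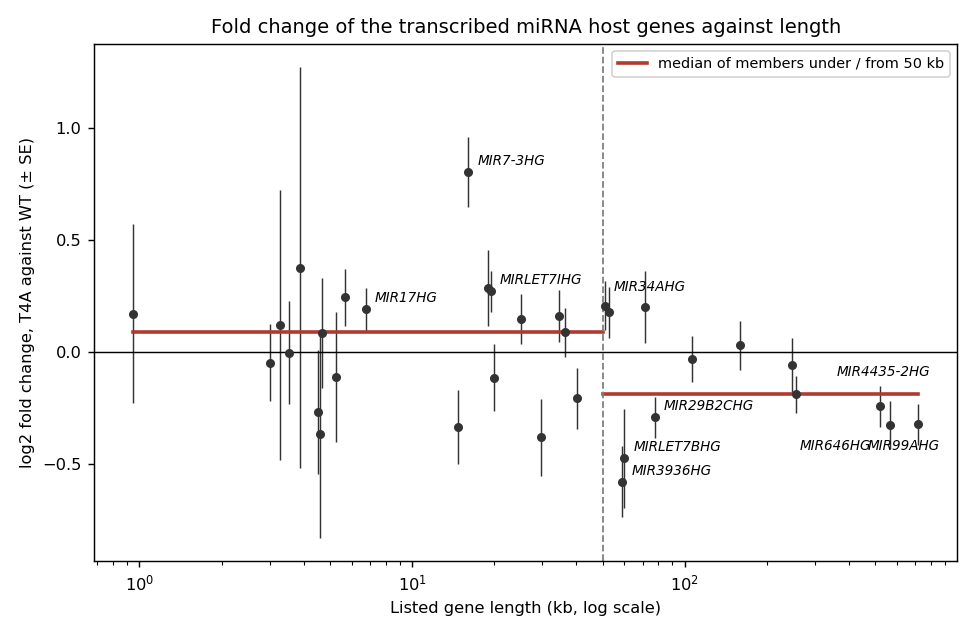
Log2 fold change (T4A against WT, error bars are SE) of the 34 transcribed and tested host genes against listed length in kb on a log axis; red lines are the medians below and from 50 kb, 0.09 and -0.19. MIR34AHG is a long host with a positive value, and MIR7-3HG stands above all others.

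The genes of the miRNA pathway itself were measured in the same libraries. Of 27 biogenesis genes found in the table, 26 were tested and HNRNPA1 was listed at 0. Why HNRNPA1 had no counts was not tested, so the 0 does not show that it was silent. None passed the adjusted threshold. At an unadjusted p below 0.05, 2 had higher and 3 had lower values (7.69% and 11.5%, against 7.45% and 8.02% of all tested genes), and the median log2 fold change was -0.10. The 2 higher were DDX5 (0.25 ± 0.10) and SRSF3 (0.30 ± 0.10), both helpers of primary miRNA processing, and the 3 lower were XPO5, the exporter of the hairpin (-0.24 ± 0.09), AGO3, an Argonaute protein (-0.24 ± 0.09), and TNRC6C, its silencing partner (-0.22 ± 0.10). XPO5 had 93.7 and 88.3 normalized CPM in WT and 76.1 and 77.6 in T4A, with no overlap. The core enzymes had smaller values, with DROSHA at -0.15 ± 0.11, DGCR8 at -0.03 ± 0.10 and DICER1 at -0.06 ± 0.09. Of the let-7 regulators, LIN28B, which blocks let-7 maturation, was well transcribed, with 190 and 210 normalized CPM in WT and 188 and 174 in T4A (-0.14 ± 0.10). LIN28A lay at 4.10 times the olfactory receptor density, under the limit for transcribed genes. In 14 of the 26 both T4A libraries were below both WT libraries, and in 4 both were above (53.8% and 15.4%, against 24.7% and 24.8% of all tested genes). Among transcribed genes of at least 50 kb, 46.6% lay below and 10.9% above, and the median length of the biogenesis genes was 53.7 kb.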

How the data were processed

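The authors deposited raw counts per gene of uniquely aligned reads, per the file headers, in the column layout of featureCounts. Tools credited to the submitters' processing notes are FastQC, cutadapt 4.6, STAR 2.7.11b, Picard and deepTools 3.5.6, with GRCh38 as the build, the libraries kept strand through dUTP, and the strand setting of the counting is not given in the sources used here. In all rows the length column is the full span from start to end, which means that introns were counted. Of the counts from 1 to 19, 83.9% were even, so mates of a pair may have been counted separately and counts may exceed fragments. Gene names came from GENCODE release 44 by stable identifier (58700 genes named), and 99.979% of 19034 protein-coding genes overlapped their GRCh38 position. MIRLET7DHG and MIR3171HG have the symbol pattern but another gene type and were left out.

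Differential synthesis was assessed by edgeR 4.0.16 (R 4.3.3, TMM factors, filterByExpr, quasi-likelihood test, Benjamini-Hochberg over 23321 genes, adjusted p below 0.05). SE was derived from the F statistic. Alternatives were DESeq2 1.42.0, other normalizations and filters, the replicate block and leaving out each library. In simulated data for this comparison with 23321 genes, 65 of 100 genes changed by a log2 value of 1 and 92 of 100 changed by 2 were called. The changed genes all had a mean above 1 CPM, and the simulated spread followed the trend over genes without a spread of each gene's own. Smaller changes were not simulated, so these shares do not give the power for hosts of fewer counts or smaller differences. Same-numbered libraries had a deviation correlation of 0.00498 over tested genes. The labels do not say whether these libraries were made as pairs, so pairing is unknown.

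Hosts named in full were the 12 of the highest mean CPM, the 6 largest rises and 6 largest falls with a mean count of at least 50 and no overlap between groups, and fixed lists of hosts by tissue and of biogenesis genes. Members and lists were chosen with earlier results of these data known. The density limit, its subtraction and the 50 kb split were chosen after seeing the data. A marker gene of the other cell types is not reported here.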

Additional observations from a re-analysis of the deposited data

How the results depend on the processing

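Counts of host genes past the threshold were 0 under both other size-factor settings, both other filters and the added fold limit of 1.5. They were 2 with scaling to mitochondrially encoded genes (MIR7-3HG and MIR325HG), 1 with DESeq2 (MIR99AHG, of 20 hosts that were given an adjusted p) and 0 to 16 when each library was left out, with 16 without T4A replicate 2 and 2 without T4A replicate 1 (MIR3936HG and MIR7-3HG). With the replicate block, 3 host genes passed (MIR7-3HG, MIRLET7BHG and MIR325HG). The count over all genes was 195 with mitochondrial scaling, 150 with no filter, 888 with DESeq2, 533 with the replicate block and 0 to 3466 with a library left out. Biogenesis genes past the threshold were 1 with DESeq2 (SRSF3) and 0 to 3 with a library left out. Hosts higher at an unadjusted p below 0.05 were 2 among transcribed members alone and 4 to 16 with a library left out. Hosts lower were 2 with mitochondrial scaling, 9 with no filter and 2 to 7 with a library left out. The median log2 fold change of the hosts was 0.22 with library size alone, -0.018 for transcribed members alone, 0.083 with the olfactory receptor density subtracted and 0.062 to 0.19 with a library left out. Some fold changes turned their sign. MIR503HG was at 0.051 with library size, 0.00054 with DESeq2 size factors, 0.0052 with at least 10 counts in every library and -0.15 to 0.12 with a library left out, MIR31HG at 0.019 with library size and -0.14 to 0.056 with a library left out, and MIR3142HG at -0.061 with the density subtracted and -0.33 to 0.92 with a library left out. With a library left out, MIR100HG ranged from -0.13 to 0.61, MIR181A1HG from -0.12 to 0.16 and MIR194-2HG from -1.67 to 1.61, and the correlation with length from -0.44 to 0.25. The causes were not tested. With 1 library left in a group, it is assumed to vary like the other group. The 25 hosts below the filter had at most 12 counts in any library.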
